A study of Mus musculus with 20 samples.

Results

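Suz12 binding was compared by ChIP-seq with an antibody to Suz12 in embryonic stem cells of the mouse line E14, wild type, before (0 h) and after 12 h of treatment with 100 µM DRB. Both groups were grown in serum with leukemia inhibitory factor (LIF) on gelatin, without feeder cells named in the labels, and the labels tell them apart by the time under DRB. Each group had 2 libraries, so 4 of the 20 samples of the series entered. Each library came with 1 list of peaks, and peaks of the 4 lists that overlapped by at least 1 bp were joined into 11833 regions, all of which were analysed. E14 is 1 cell line, and nothing in the labels says whether replicates were separate cultures, so p-values measure the spread between these libraries.

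Suz12 holds together the core of Polycomb repressive complex 2 (PRC2), the enzyme that methylates lysine 27 of histone H3. In embryonic stem cells PRC2 occupies CpG-rich promoters of genes that are silent but are used later in development. DRB inhibits CDK9, the kinase of P-TEFb that releases paused RNA polymerase II into elongation, and so stops synthesis of most messenger RNA. The comparison asks where Suz12 lies once transcription has been blocked.

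The reads deposited for each region were counted in 4 libraries that the column names identify by group, index and lane, not by replicate number. The lane 1 and lane 4 libraries (0 h) had 1305651 and 4323000 reads over the regions, and the lane 3 and lane 6 libraries (12 h) had 2396167 and 7232275. Lanes 1 and 3 share 1 index and lanes 4 and 6 the other, and every set of 4 values below is given in the order lane 1, lane 4, lane 3, lane 6. No lane holds both times, so lane and treatment cannot be told apart. Within each index the 12 h library had more reads over the regions, so this number moved with treatment. Reads outside the regions were not counted, so total sequencing depth is not known here. The part of depth in the number of peaks was not tested, while read counts were scaled to the reads over the regions. The 2 libraries of a group differed by more than counting noise (chi-square divided by its degrees of freedom: 3.04 at 0 h, 8.70 at 12 h).

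The promoters below were chosen from regions at genes with at least the median signal (34.7 CPM, defined with the values below). Changes were measured over the whole regions. CpG dinucleotides are in capitals because they were counted against the peaks. Where a gene had more than 1 start window at its region, the window with most CpG is shown (Sall1 has 3 windows). Each window runs from 250 bases before to 50 bases after an annotated start, read 5′ to 3′ on the strand of the gene, from RefSeq (GRCm38.p6). The first 4 belong to genes whose Suz12 signal rose most under DRB among regions of at least the median signal. They are Sall1 (chr8:89042813-89043112, minus strand, 39 CpG), Irf2bp1 (chr7:19003808-19004107, plus strand, 23 CpG), Irf2bpl (chr12:86884765-86885064, minus strand, 26 CpG) and Klf2 (chr8:72318812-72319111, plus strand, 32 CpG).
Sall1: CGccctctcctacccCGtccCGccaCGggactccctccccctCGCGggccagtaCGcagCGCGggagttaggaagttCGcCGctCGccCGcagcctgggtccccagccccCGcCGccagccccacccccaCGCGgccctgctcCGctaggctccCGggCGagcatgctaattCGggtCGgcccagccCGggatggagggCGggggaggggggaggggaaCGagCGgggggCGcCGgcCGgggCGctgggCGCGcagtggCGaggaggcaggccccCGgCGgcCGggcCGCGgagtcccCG
Irf2bp1: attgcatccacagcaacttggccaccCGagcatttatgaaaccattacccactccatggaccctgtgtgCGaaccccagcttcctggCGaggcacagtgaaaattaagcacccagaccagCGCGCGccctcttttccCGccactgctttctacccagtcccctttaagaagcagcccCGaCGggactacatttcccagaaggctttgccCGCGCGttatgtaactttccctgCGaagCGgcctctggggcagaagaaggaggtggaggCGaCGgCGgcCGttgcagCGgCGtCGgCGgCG
Irf2bpl: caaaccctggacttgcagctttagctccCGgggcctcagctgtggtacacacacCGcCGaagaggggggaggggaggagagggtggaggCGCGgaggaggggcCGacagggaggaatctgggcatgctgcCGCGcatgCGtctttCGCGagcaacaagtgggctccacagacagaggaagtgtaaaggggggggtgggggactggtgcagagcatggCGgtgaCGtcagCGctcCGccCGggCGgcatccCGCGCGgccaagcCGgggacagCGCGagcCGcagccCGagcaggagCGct
Klf2: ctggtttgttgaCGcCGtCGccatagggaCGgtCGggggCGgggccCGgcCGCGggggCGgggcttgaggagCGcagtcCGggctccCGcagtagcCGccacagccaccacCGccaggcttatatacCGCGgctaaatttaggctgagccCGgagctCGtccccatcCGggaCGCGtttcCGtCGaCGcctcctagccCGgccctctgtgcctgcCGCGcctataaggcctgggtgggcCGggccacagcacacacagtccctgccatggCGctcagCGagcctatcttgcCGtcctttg

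Ddit4l (chr3:137623422-137623721, plus strand, 14 CpG) and Plk2 (chr13:110394794-110395093, plus strand, 31 CpG) are the genes at which the signal fell most among regions of at least the median signal (34.7 CPM, defined with the values below). Ebf3 (chr7:137314396-137314695, minus strand, 46 CpG) lies in the region of highest signal, which had peaks at both times. Of these 7 windows, chosen as above, those with at least 15 CpG include genes that rose, Plk2, which fell, and Ebf3, occupied throughout.
Ddit4l: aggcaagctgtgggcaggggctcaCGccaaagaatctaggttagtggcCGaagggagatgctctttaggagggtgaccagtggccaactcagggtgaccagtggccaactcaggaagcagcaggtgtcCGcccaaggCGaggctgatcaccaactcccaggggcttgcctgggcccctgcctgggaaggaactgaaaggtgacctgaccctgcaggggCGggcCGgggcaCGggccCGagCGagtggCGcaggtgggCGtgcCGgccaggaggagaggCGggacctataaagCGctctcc
Plk2: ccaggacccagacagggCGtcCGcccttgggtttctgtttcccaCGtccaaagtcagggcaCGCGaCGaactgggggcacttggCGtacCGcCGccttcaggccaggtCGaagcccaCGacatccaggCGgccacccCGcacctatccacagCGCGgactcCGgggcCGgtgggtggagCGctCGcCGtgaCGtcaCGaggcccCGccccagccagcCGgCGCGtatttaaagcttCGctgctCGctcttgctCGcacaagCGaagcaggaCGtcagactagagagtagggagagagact
Ebf3: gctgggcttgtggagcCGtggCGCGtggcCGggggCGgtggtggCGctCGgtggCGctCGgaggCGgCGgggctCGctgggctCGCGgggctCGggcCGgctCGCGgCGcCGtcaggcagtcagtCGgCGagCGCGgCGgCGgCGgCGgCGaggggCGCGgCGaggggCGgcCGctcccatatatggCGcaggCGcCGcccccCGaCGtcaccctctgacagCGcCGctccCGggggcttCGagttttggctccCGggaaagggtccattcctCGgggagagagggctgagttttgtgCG

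After 12 h of DRB the peak lists were longer and reached more genes, while single peaks were not wider. The lists held 5795 and 6886 peaks at 0 h (replicates 1 and 2) and 10929 and 10492 at 12 h. Covered length was 8.72 and 11.7 Mb at 0 h and 15.2 and 18.1 Mb at 12 h. Genes with a peak within 1 kb of their start numbered 3467 and 4145 at 0 h and 7371 and 6757 at 12 h, out of 21631 protein-coding genes. For these 3 measures both 12 h lists lay above both 0 h lists. The 12 h lists held 1.70 times as many peaks, 1.64 times the covered length and 1.86 times as many genes (ratios of geometric means, two-sided exact permutation p = 0.333 for each). This p is the smallest that 2 lists against 2 allow. Median peak width was 1210 and 1291 bp at 0 h and 1120 and 1340.5 bp at 12 h, and the groups overlapped (ratio 0.98, exact permutation p = 1). Peaks at a gene made up 63.3% and 63.1% of the 0 h lists and 67.7% and 64.9% of the 12 h lists.

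**Figure D1:**
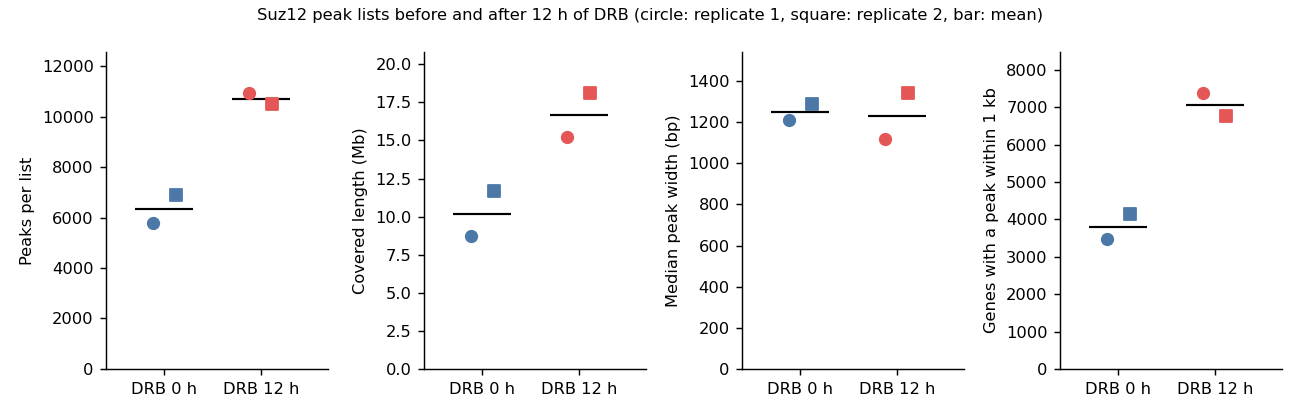
Peaks per list, covered length (Mb), median peak width (bp) and protein-coding genes with a peak within 1 kb, for each Suz12 list (points) with the group mean (bar). Both 12 h lists lie above both 0 h lists for peaks, covered length and genes, while median width overlaps.

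Sites bound at 0 h were nearly all still bound at 12 h. Of the regions in the list of 0 h replicate 1, 98.2% were also in the list of 12 h replicate 1 and 98.7% in that of replicate 2. For 0 h replicate 2 the shares were 92.5% and 96.8%. In the other direction the regions of 0 h replicate 1 were 48.9% and 49.2% of the regions in the 12 h lists. The 12 h lists shared 8918 regions, 86.7% of each. Of the 11833 regions, 4900 had a peak in all 4 lists (kept), 2888 in both 12 h lists and no 0 h list (gained), and 13 in both 0 h lists and no 12 h list (lost). The other 4032 had mixed patterns, of which 1037 had a peak in 0 h replicate 2 and both 12 h lists, 1304 in 12 h replicate 1 alone and 1037 in 12 h replicate 2 alone. The counts of gained and lost regions depend on list length: with each list held to its 5795 peaks of highest signal, 824 regions were gained and 507 lost.

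Kept regions were broader than gained regions. Median widths were 2099.5 bp for kept, 1142.5 bp for gained and 835.5 bp for mixed regions. Regions within 1 kb of a gene start were 70.0% of kept, 74.0% of gained and 54.6% of mixed regions, against 65.7% of all. Gained regions lay a median of 109.6 kb from the nearest kept region, and 8.69% lay within 10 kb of one. Genes were classed by the same rule from the lists with a peak within 1 kb of them. There 3369 genes were kept, 2257 gained, 3 lost and 2202 mixed, and 13800 had no peak. Within kept regions the peaks did not widen beyond the spread of the lists. The median log2 ratio of width was 0.18 and 0.45 for the 12 h lists against 0 h replicate 1, and -0.04 and 0.14 against 0 h replicate 2. Between replicates of 1 group it was 0.23 at 0 h and 0.22 at 12 h.

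Read counts over the regions changed in both directions. In the quasi-likelihood test of edgeR, with TMM scaling and an adjusted p under 0.05, 1454 regions were called higher at 12 h (12.3% of all) and 1415 lower (12%). The result depends on the scaling. TMM takes most regions as unchanged, and with factors taken from kept regions alone 2689 were called higher (22.7%) and 226 lower (1.91%). Higher calls made up 50.7% of all calls with TMM and 92.2% with scaling on kept regions. The median log2 change of all regions went from 0.06 to 0.37 between these scalings, and both values are given below where a direction or a call depends on it. Counts outside the regions were not used, so changes are relative to the other regions and an overall gain or loss of Suz12 was not measured. All 1454 regions called higher with TMM were also called higher with scaling on kept regions, and all 226 called lower with the second were also called lower with the first.

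Gained regions took a larger share of the reads at 12 h, and kept regions a smaller one. Gained regions held 5.39% and 5.91% of the counted reads at 0 h and 10.8% and 11.0% at 12 h. Kept regions held 86.9% and 85.0% at 0 h and 79.6% and 78.2% at 12 h. In each measure the groups did not overlap, and the replicates lay close together. Gained regions had a median log2 change of 0.65 (0.96 with scaling on kept regions), with 937 called higher and 0 called lower (1405 and 0 at an unadjusted p under 0.05). They were chosen for peaks at 12 h alone in the same libraries, so this is a description and no test of them. Kept regions had a median of -0.34, with 286 called higher and 1275 lower, but -0.02, with 701 higher and 192 lower, when the scaling was taken from them. The difference between the medians of gained and kept regions, 0.99 on the log2 scale, does not depend on the scaling. It was 1.10 without the lane 4 library and 0.92 without the lane 1 library, the ends of its range when each library was left out in turn.

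**Figure D2:**
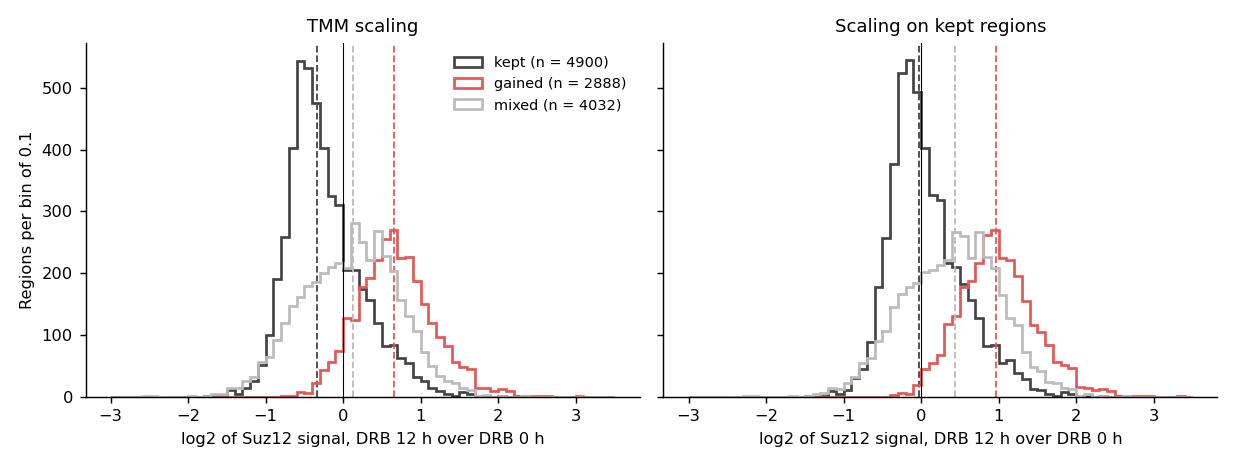
Number of regions (bins of 0.1) by log2 change in Suz12 signal, 12 h over 0 h, for kept (n = 4900), gained (n = 2888) and mixed (n = 4032) regions, with medians as dashed lines, under TMM scaling (left) and scaling on kept regions (right). The medians of kept and gained regions are -0.34 and 0.65 on the left and -0.02 and 0.96 on the right.

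The index pairs gave like pictures. The log2 ratio of lane 3 to lane 1 and that of lane 6 to lane 4 had a Pearson r of 0.751 over the 11833 regions, which are not independent replicates and share normalization. Both ratios were above 0 in 5045 regions and below 0 in 4725.

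Among regions of at least the median signal, the 12 with the largest increases at genes lay at Sall1, Irf2bp1, Irf2bpl, Klf2, Mesd and Tlnrd1, Slc38a1, Fzd7, Epop, B4galnt4, Socs3, Mycn and Anp32e. Sall1, a zinc finger transcription factor needed to form the kidney, had 48.9 and 44.7 CPM at 0 h and 279 and 290 CPM at 12 h (CPM: counts per 1000000 reads over the regions, after TMM scaling). Its region (chr8:89040677-89047553, GRCm38) spans 6877 bp, and no peak was listed there at 0 h, while those of the 12 h lists covered 6032 and 6804 bp. The log2 change was 2.62 ± 0.18 (SE, edgeR adjusted p = 7.10e-05), and the 2 groups lay far apart.

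Genes of the interferon regulatory factor 2 binding family followed. Irf2bp1 (chr7:19003808-19006221) had 16.6 and 32.7 CPM at 0 h and 162 and 143 CPM at 12 h, a log2 change of 2.5 ± 0.26 (SE). Irf2bpl (chr12:86881550-86885037) had 45.6 and 56.9 CPM at 0 h and 333 and 259 CPM at 12 h, a change of 2.49 ± 0.20 (SE). Both were gained, and both 12 h libraries exceeded both 0 h libraries several times over. Klf2 (chr8:72318736-72321178), a Krüppel-like factor of the naive pluripotent state, had 21.6 and 24.8 CPM at 0 h and 131 and 134 CPM at 12 h. Its change was 2.49 ± 0.21 (SE, adjusted p = 1.82e-04), and replicates at each time were nearly equal.

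Not every strong increase was at a promoter free of Suz12 peaks at 0 h. Fzd7, a Frizzled receptor for Wnt ligands (chr1:59481868-59485293), was kept in all lists. It had 86.3 and 83.1 CPM at 0 h and 444 and 378 CPM at 12 h, a log2 change of 2.28 ± 0.17 (SE, adjusted p = 1.06e-04). Its listed peaks widened from 757 and 2030 bp to 3164 and 3356 bp. The region shared by Mesd, a chaperone of Wnt co-receptors, and Tlnrd1 (chr7:83881914-83884857) had a peak in 0 h replicate 2 and both 12 h lists. There the signal was 52.3 and 69.8 CPM at 0 h and 371 and 291 CPM at 12 h, a change of 2.40 ± 0.20 (SE).

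The other 6 regions of this rank were all gained and had log2 changes of 2.13 to 2.28. They lay at Slc38a1, a glutamine transporter gene, Epop, which encodes a PRC2-associated protein, B4galnt4, Socs3, a feedback inhibitor of cytokine signalling, the proto-oncogene Mycn, and Anp32e, a histone chaperone gene. Mycn (chr12:12938887-12942133) had 35.7 and 36.8 CPM at 0 h and 156 and 165 CPM at 12 h. Epop (chr11:97627535-97630113) had the widest spread, with 24.1 and 28.9 CPM at 0 h and 163 and 83.7 CPM at 12 h (2.17 ± 0.31, SE, adjusted p = 0.00148). At all 12 regions both 12 h libraries lay above both 0 h libraries, as they did at 4204 of all 11833 regions. The 12 were chosen by the size of this change, so the gap is a description. All 12 kept their call with scaling on kept regions.

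Among regions of at least the median signal, the 8 with the largest decreases at genes were 1160 to 2144 bp wide, and 6 of them were kept regions. Ddit4l, related to the mTOR inhibitor Ddit4 (chr3:137623015-137624608), had 87.1 and 86.7 CPM at 0 h and 19.4 and 24.8 CPM at 12 h. Its log2 change was -1.95 ± 0.23 (SE, edgeR adjusted p = 6.30e-04) and -1.63 with scaling on kept regions. Plk2, a Polo-like kinase gene induced by p53 (chr13:110394368-110395886), had 73.0 and 88.6 CPM at 0 h and 27.8 and 21.0 CPM at 12 h, a change of -1.77 ± 0.24 (SE, adjusted p = 0.00112). At both genes peaks were listed at 0 h in both replicates and at 12 h in replicate 1 alone.

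Pfkfb3, which encodes a regulator of glycolysis, had separate kept regions that both fell. At chr2:11552705-11554421 the signal was 150 and 153 CPM at 0 h and 37.5 and 50.6 CPM at 12 h, a log2 change of -1.76 ± 0.21 (SE, adjusted p = 6.32e-04). At chr2:11501101-11504198 it was 132 and 147 CPM at 0 h and 65.4 and 84.8 CPM at 12 h, a smaller change of -0.88 ± 0.20 (SE, adjusted p = 0.0105, but 0.0578 with scaling on kept regions). The next regions lay at Anks1b, Stxbp6, Cpne2, Arhgef4 and Col16a1, a collagen gene, all kept, with changes of -1.49 to -1.61. At none of these did the groups overlap, and both 12 h libraries lay below both 0 h libraries at 3766 of all 11833 regions. Without the lane 4 library the smaller Pfkfb3 change was not called (adjusted p = 0.0657), while the 8 regions of this rank kept their call with scaling on kept regions.

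Loss of a listed peak was rare with the full lists (13 regions, but 507 with lists of equal length), and only 3 of the 13 lay at a gene. Zfp365 (chr10:67911941-67912857) had 46.5 and 50.7 CPM at 0 h and 11.3 and 12.3 CPM at 12 h (log2 change -2.04 ± 0.25, SE, edgeR adjusted p = 7.72e-04). The receptor genes Il12rb2 (-0.88 ± 0.30, SE, adjusted p = 0.0483) and Agtr1a (-0.89 ± 0.38, SE, adjusted p = 0.0984) had smaller changes. With scaling on kept regions the adjusted p of Il12rb2 was 0.186, and without the lane 1 or the lane 4 library it was 0.257 and 0.163. These regions were chosen for peaks at 0 h alone in the same libraries, and their changes are a description.

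The 6 kept regions of highest signal at genes had peaks at both times and carried a smaller share of the reads after DRB. Ebf3, a transcription factor of neuronal differentiation (chr7:137308281-137323746, 15466 bp), had 2335 and 2102 CPM at 0 h and 1542 and 1433 CPM at 12 h. Cbx8, a subunit of PRC1 (chr11:119033908-119060225, 26318 bp), had 2205 and 2169 CPM at 0 h and 1519.5 and 1490.2 CPM at 12 h. The other 4 were Lmx1b, Tbx2, Tbx1 and Uncx, all homeobox or T-box genes. Their log2 changes, with those of Ebf3 and Cbx8, were -0.51 to -0.61 with TMM, and all 6 were called lower. With scaling on kept regions they were -0.20 to -0.30 and none of the 6 was called (adjusted p 0.066 to 0.266), so their fall is relative to the other regions. Each of these 6 calls was also lost when any 1 of the 4 libraries was left out, with a highest adjusted p of 0.0968 (Lmx1b, without the lane 3 library) to 0.35 (Uncx, without the lane 1 library).

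**Figure D3:**
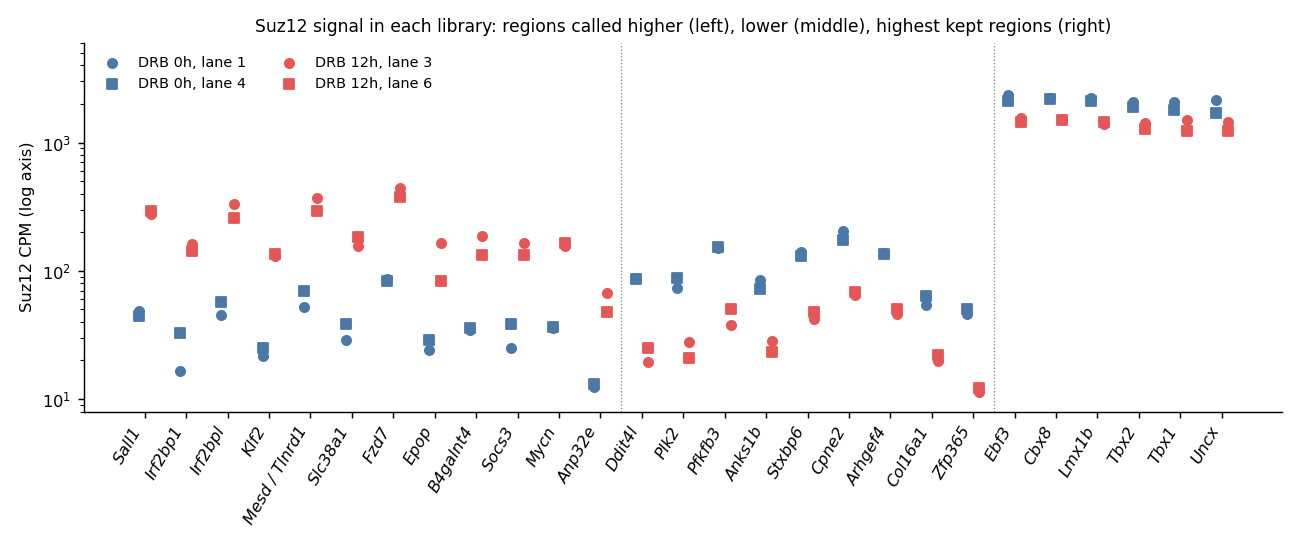
Suz12 signal (CPM, log axis) in each of the 4 libraries at the 12 regions of largest increase (left), the 8 of largest decrease and Zfp365 (middle), and the 6 kept regions of highest signal (right). The 12 h libraries lie above both 0 h libraries on the left and below them in the middle and on the right.

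Groups of genes were described by lists of known function. A member counted through its region within 1 kb of the start, or had none, and all counts stand beside the background of all regions, of which 12.3% were called higher and 12% lower (22.7% and 1.91% with scaling on kept regions). Members with a region entered in part through peaks at 12 h alone, so a higher count at 12 h comes in part with that entry. Members are counted as kept, gained or mixed, or as having such a region, by the lists with a peak within 1 kb of the gene. Of all protein-coding genes 15.6% were kept, 10.4% gained and 10.2% mixed, and 63.8% had no peak. The lists are described by counts and medians, with no test of a list.

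Suz12 signal rose at 10 genes of the pluripotent state, and no region of that list was called lower. Of 35 pluripotency factors, 5 had a kept region, 10 a gained one, 5 a mixed one and 15 no peak. Of their 20 regions 10 were called higher and 0 lower, at a median log2 change of 1.02, and 13 were called higher with scaling on kept regions. At an unadjusted p under 0.05 there were 12 higher and 0 lower, and DESeq2 called 6 higher and 0 lower. Beside Klf2 and Mycn, the growth factor gene Fgf4 (chr7:144860861-144863109) had 20.7 and 25.8 CPM at 0 h and 102 and 94.5 CPM at 12 h, a change of 2.04 ± 0.23 (SE, edgeR adjusted p = 5.24e-04). Higher calls numbered 8 without the lane 1 or the lane 4 library, 12 without lane 3 and 10 without lane 6.

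Genes that signalling switches on, and those that switch signalling off again, also had gained regions. Of 27 immediate early genes, 13 had kept, 10 gained and 3 mixed regions, and 1 had none. Of their 26 regions 11 were called higher and 2 lower, at a median of 0.65. Junb, a subunit of AP-1 (chr8:84976995-84979154), had 24.9 and 26.5 CPM at 0 h and 107 and 82.6 CPM at 12 h (1.86 ± 0.23, SE). Dusp6, a phosphatase of ERK, changed by 1.78 ± 0.27 and Jund by 1.68 ± 0.23 (SE). The members called lower were Atf3 (-0.55 ± 0.15) and Egr2 (-0.47 ± 0.15, SE), both kept, and neither was called with scaling on kept regions (adjusted p = 0.225 and 0.374). Without any 1 of lanes 1, 3 and 4 neither was called, and without lane 6 Egr2 was not (highest adjusted p 0.148 for Atf3 and 0.354 for Egr2, both without lane 1). Only 5 immediate early genes were called higher without the lane 4 library.

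Of 24 feedback inhibitors of signalling, 7 had kept, 11 gained and 3 mixed regions. Of their 21 regions 9 were called higher and 0 lower (13 and 1 at an unadjusted p under 0.05), at a median of 0.68. Socs3 (chr11:117967084-117969760) had 24.9 and 38.7 CPM at 0 h and 164 and 133 CPM at 12 h. The Sprouty gene Spry4 had 27.4 and 28 CPM at 0 h and 71.0 and 73.5 CPM at 12 h, a change of 1.38 ± 0.22 (SE), and Socs2 changed by 1.23 ± 0.19 (SE). Higher calls numbered 6 without lane 1 and 5 without lane 4.

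Genes of the Polycomb complexes themselves had calls near the background with TMM scaling, but not with scaling on kept regions. Of 38 Polycomb subunits and partners, 13 had kept, 8 gained and 4 mixed regions. With scaling on kept regions 10 of these 25 regions were called higher and 0 lower, against 22.7% and 1.91% of all regions. Their median log2 change was then 0.62, against 0.37 of all regions. With TMM 4 were called higher and 2 lower (16% and 8%). Without lane 1, 4 or 6 none was called lower (with all 4 libraries 3 were lower at an unadjusted p under 0.05, and DESeq2 called 2). Epop, Pcgf2 (1.67 ± 0.25, SE) and Kdm2b (1.26 ± 0.20, SE) were among the 4 called higher. Pcgf2, a ring finger subunit of PRC1 (chr11:97699699-97701357), had 14.1 and 21.0 CPM at 0 h and 56.9 and 60.6 CPM at 12 h. Cbx8 (-0.54 ± 0.13, SE) was called lower with TMM and not with scaling on kept regions.

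Other enzymes of DNA and histone methylation had 5 kept, 10 gained and 6 mixed regions among 38 genes. Of their 21 regions 7 were called higher and 1 lower, at a median of 0.69. Setd1b (1.48 ± 0.27), Kmt2c (1.34 ± 0.24) and Nsd1 (1.34 ± 0.41, SE), which encode methyltransferases of histone H3, were gained. Nsd1 had 4.15 and 10.8 CPM at 0 h and 21.4 in both libraries at 12 h, and was not called without the lane 1 library (adjusted p = 0.185). Higher calls in the list numbered 4 without lane 4 and 12 without lane 6. The kept region of Prdm16 (-0.49 ± 0.14, SE) was called lower with TMM, but not with scaling on kept regions (adjusted p = 0.297) or without any 1 of the 4 libraries (adjusted p 0.0918 to 0.248).

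The machinery that DRB acts on had a Suz12 region at 13 of 56 genes. Of these genes of RNA polymerase II initiation and elongation, 43 had no peak, 7 were gained and 6 mixed. Among all protein-coding genes 63.8% had no peak, 10.4% were gained and 10.2% mixed. Hexim1, an inhibitor of P-TEFb (chr11:103116810-103118156), had 11.6 and 12.4 CPM at 0 h and 42.4 and 52.0 CPM at 12 h, a change of 1.97 ± 0.27 (SE, edgeR adjusted p = 0.00117). Polr2b changed by 0.95 ± 0.22 (SE, adjusted p = 0.0135) and was not called without lane 1 or lane 4 (adjusted p = 0.0675 and 0.0597). Of the 13 regions 2 were called higher (15.4%, close to the 12.3% of all regions) and 0 lower (also 0 at an unadjusted p under 0.05). With scaling on kept regions 5 were called higher and 0 lower, against 22.7% and 1.91% of all regions.

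Metabolic genes gained regions in part. Of 34 glycolysis genes 8 were gained and 20 had no peak. Eno3 (1.95 ± 0.23), the lactate dehydrogenase gene Ldha (1.68 ± 0.26) and the lactate transporter gene Slc16a1 (1.30 ± 0.23, SE) rose, while Pfkfb3 fell. Ldha had 19 and 33.9 CPM at 0 h and 83.5 and 96.9 CPM at 12 h. Among 35 amino acid transporter genes 11 were gained and 10 kept, and of 25 regions 10 were called higher and 3 lower. Slc7a5 (1.68 ± 0.30) and Slc38a2 (1.64 ± 0.27, SE) were gained like Slc38a1. The members called lower, Slc7a14, Slc6a17 and Slc7a10, were kept regions at -0.81, -0.67 and -0.54, and none was called with scaling on kept regions or without the lane 4 library (adjusted p 0.0688 to 0.103). In sterol synthesis 2 of 9 regions were called higher, Sqle (1.03 ± 0.35) and Fdps (0.63 ± 0.16, SE), and neither was called without the lane 4 library (adjusted p = 0.276 and 0.24).

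Of 78 ribosomal protein genes 69 had no peak in any list, and 1 of 9 regions was called higher: Rpl7, with 72.2 and 75.5 CPM at 0 h and 111 and 119 CPM at 12 h (0.64 ± 0.19, SE). It was not called without lane 1 or lane 4 (adjusted p = 0.152 and 0.155). Cell cycle genes had 9 of 27 regions called higher and 1 lower, at a median of 0.76. The kinase inhibitor gene Cdkn1b had 24.9 and 33.9 CPM at 0 h and 81.5 and 88.5 CPM at 12 h (1.48 ± 0.23, SE), followed by Rbl1 (1.44 ± 0.29) and Ccnd3 (1.43 ± 0.25, SE). Without lane 1 the higher calls numbered 5. Replication-dependent histone genes had 4 of 10 regions called higher, 1 without lane 1 and 6 without lane 3. These genes have near-identical copies, so reads at a region such as that shared by H2bc6 and H1f4 (1.56 ± 0.40, SE, not called without lane 1, adjusted p = 0.0819) are uncertain.

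Genes of the stress and p53 response had calls in both directions. Of 35 members 6 were kept, 6 gained and 11 mixed. Of the 23 regions 5 were called higher and 3 lower (21.7% and 13.0%, the latter close to the background), and 8 and 2 with scaling on kept regions. Without the lane 4 library there were 2 of each. Plk3 (1.57 ± 0.24), the chaperone gene Hsph1 (1.30 ± 0.34) and Xbp1 (1.22 ± 0.32, SE) were gained and called higher. Hsph1 and Xbp1 were not called without the lane 4 library (adjusted p = 0.2 and 0.242). Plk2, Phlda3 and Ddit4 were called lower. Phlda3, a p53-induced inhibitor of Akt (chr1:135765697-135767110), had 109 and 98.4 CPM at 0 h and 38.7 and 37.2 CPM at 12 h (-1.45 ± 0.20, SE, edgeR adjusted p = 0.0013), with no overlap of the groups. Ddit4 had 84.6 and 153 CPM at 0 h and 45.6 and 77.0 CPM at 12 h. Its change of -0.96 ± 0.29 (SE) became -0.44 without the lane 4 library (adjusted p = 0.396) and was not called with scaling on kept regions (adjusted p = 0.14).

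The classical Polycomb targets kept their peaks, and none of their regions was called higher. All 39 Hox genes had a peak in both 0 h lists, as a check of the antibody's label, and 37 of them in both 12 h lists. Of 32 Hox regions 20 were called lower, at a median of -0.51, but 1 with scaling on kept regions (median -0.19). Lineage regulators, 70 transcription factors that direct tissue formation, had 69 kept members and 1 without a peak. Of the 69 regions 44 were called lower at a median of -0.51, and 3 with scaling on kept regions (median -0.19). Lower calls went down to 2 of the Hox regions without lane 1 or lane 4, to 7 without lane 3 and to 14 without lane 6. For lineage regulators they numbered 6, 6, 20 and 16 in the same order.

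Within these lists the larger falls were at Hoxc13, Hoxb13, Hoxd12, Tbx5, Sox17 and Gata2. Hoxc13 (chr15:102920877-102922952) had 263 and 220 CPM at 0 h and 151 and 121 CPM at 12 h (-0.82 ± 0.18, SE), and it was called with both scalings. With counts from the narrowest peak of its region it was not called (edgeR adjusted p = 0.196). Without the lane 1 library it was not called (adjusted p = 0.0584). Hoxb13 (-0.77 ± 0.19) and Hoxd12 (-0.71 ± 0.16, SE) were called with TMM and not with scaling on kept regions (adjusted p = 0.108 and 0.0834). Hoxd12 was also not called with counts from the narrowest peak (adjusted p = 0.142). Hoxb13 lost its call without lane 4 (adjusted p = 0.0916) or lane 3 (0.0510), and Hoxd12 without lane 1 (0.0623). Gata2, a regulator of blood formation (chr6:88192516-88202780), had 1454 and 1189 CPM at 0 h and 776 and 629 CPM at 12 h. Its change was -0.91 ± 0.16 with TMM (SE, adjusted p = 0.00395) and -0.60 with scaling on kept regions (adjusted p = 0.0103). Sox17, a regulator of endoderm, had 220 and 243 CPM at 0 h and 98.4 and 142 CPM at 12 h (-0.94 ± 0.19, SE) and was also called with both. Tbx5, a regulator of heart and forelimb, had 160 and 161 CPM at 0 h and 53.3 and 97.8 CPM at 12 h (-1.06 ± 0.25, SE). The 12 h libraries lay well apart from each other, but both lay below both 0 h libraries. With scaling on kept regions it was not called (adjusted p = 0.0542).

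Regions near microRNA hairpins were called lower in a share close to the background. Of 111 regions within 1 kb of a hairpin, 20 were called higher (18%) and 11 lower (9.91%, against 12% of all regions). The 11 were among 47 kept regions (23.4%, against 26% of all kept regions). The median log2 change of the 111 regions was 0.33, and 0.64 with scaling on kept regions. The hairpins named here were chosen after their values were seen, and none of them is at a region called higher. Mature sequences of the Hox cluster hairpins are given below from RefSeq (GRCm38.p6), with the seed (bases 2 to 8) in capitals, since they fall into families that share a seed across clusters.
miR-10a-5p: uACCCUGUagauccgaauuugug
miR-10b-5p: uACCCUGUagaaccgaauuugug
miR-196a-5p: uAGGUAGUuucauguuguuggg
miR-196b-5p: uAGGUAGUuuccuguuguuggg

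Mir10a lies at chr11:96317186-96317208 and Mir10b at chr2:74726074-74726096 (mature sequences), both on the plus strand. The region over Mir10b and Hoxd4 (chr2:74722813-74729193) had 356 and 383 CPM at 0 h and 214 and 284 CPM at 12 h (-0.56 ± 0.17, SE, edgeR adjusted p = 0.0348). Those at Mir10a changed by -0.80 ± 0.17 (chr11:96313646-96316690) and -0.46 ± 0.15 (chr11:96317172-96321449, SE). Regions at Mir196a-2 (-0.82 ± 0.22) and Mir196b (-0.56 ± 0.16, SE) were also called lower. The region nearest Mir196a-1, which is mixed (chr11:96263449-96265081), had 30.7 and 54.5 CPM at 0 h and 32.7 and 50.0 CPM at 12 h and did not pass the test (-0.08 ± 0.29, SE, adjusted p = 0.852). Outside the Hox clusters, the region at Mir34b and Mir34c (chr9:51103112-51104464), which are induced by p53, had 73.8 and 81.2 CPM at 0 h and 46.8 and 40.5 CPM at 12 h (-0.85 ± 0.21, SE, adjusted p = 0.0165). None of the 6 regions called lower here was called with scaling on kept regions (adjusted p 0.0526 to 0.461). Each of the 6 also lost its call when some 1 library was left out (highest adjusted p 0.0521 to 0.248).

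**Figure D4:**
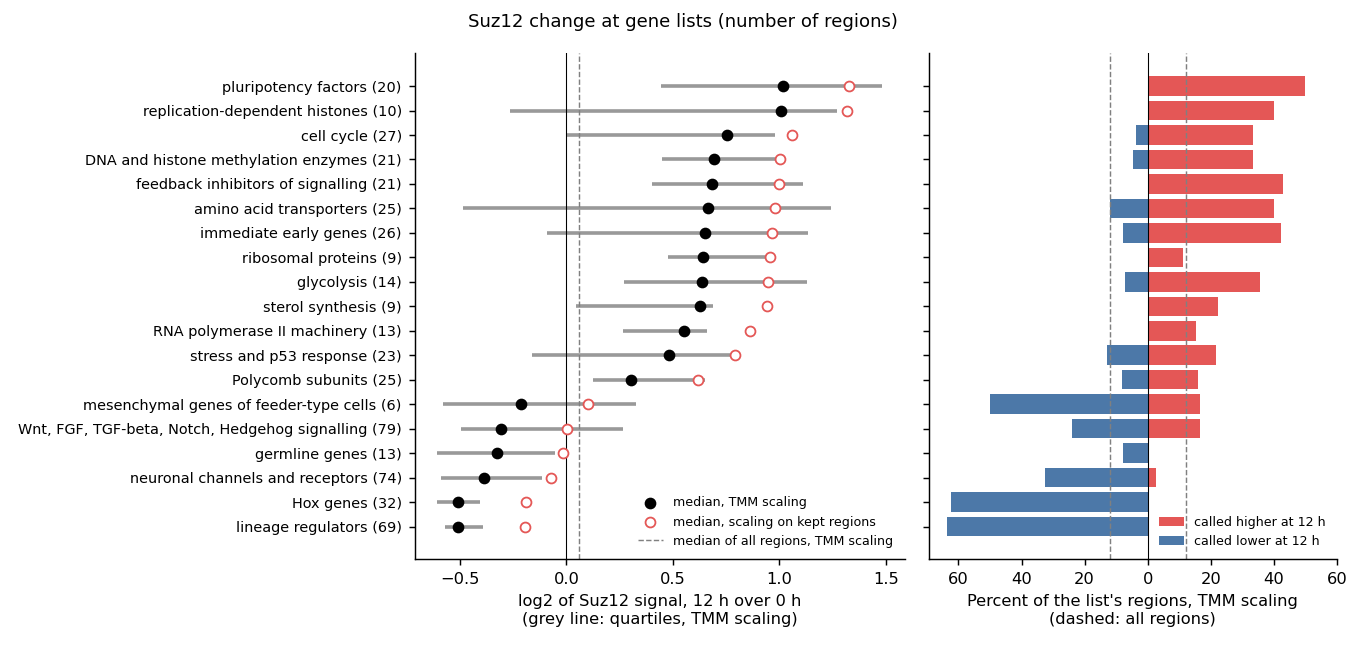
Left: median log2 change in Suz12 signal, 12 h over 0 h, of the regions of each gene list with at least 6 regions (number in brackets), with TMM scaling (filled, quartiles in grey) and scaling on kept regions (open). Right: percent of the regions called higher or lower with TMM, with 12.3% and 12% of all regions as dashed lines. Pluripotency factors have the highest median (1.02), and Hox genes and lineage regulators the lowest (-0.51 each, -0.19 with scaling on kept regions).

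Ligands and receptors of the Wnt, FGF, TGF-beta, Notch and Hedgehog pathways were mostly bound at both times and changed in both directions. Of 84 genes 66 had kept, 8 gained and 5 mixed regions. Of 79 regions 13 were called higher and 19 lower (24.1%, against 26% of all kept regions), and 19 and 3 with scaling on kept regions. The median was -0.31 and turned to 0.0048 with the second scaling, so no direction of the list as a whole can be given. Lower calls numbered 5 without lane 1 or lane 4. The largest increases were at receptor genes, Fzd7, Fzd5 (chr1:64734591-64737885, 1.6 ± 0.24) and the Hedgehog receptor gene Ptch1 (chr13:63563141-63566897, 1.58 ± 0.19, SE). Ptch1 had 68.8 and 89.1 CPM at 0 h and 221 and 259 CPM at 12 h. The largest decreases were at Fgf14 (-0.90 ± 0.22), Wnt10a (-0.87 ± 0.16) and Shh (-0.87 ± 0.14, SE). Fgf14 was not called with scaling on kept regions (adjusted p = 0.0853) or without lane 4 (0.16). Shh (chr5:28457555-28468102) had 1402 and 1227 CPM at 0 h and 754 and 682 CPM at 12 h, and it was called lower with both scalings (adjusted p = 0.00295 and 0.00759).

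Neuronal channels and receptors had 65 kept members among 84 genes. Of 74 regions 2 were called higher and 24 lower (32.4%), at a median of -0.39. Among all kept regions 26% were called lower, at a median of -0.34, so most of this fall is shared by kept regions at large. With scaling on kept regions 9 of the 74 were called higher and 2 lower (median -0.07). Without lane 1 or lane 4 the lower calls numbered 6 and 5. The GABA-B receptor gene Gabbr1 was gained (1.57 ± 0.28, SE), whereas the calcium channel gene Cacna1e had 199.9 and 184 CPM at 0 h and 93.2 and 104 CPM at 12 h (-0.95 ± 0.17, SE, called with both scalings).

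Lists for other cell types and for genes rarely bound by PRC2 had few regions. Of 18 mesenchymal genes of feeder-type cells 12 had no peak, and of 6 regions 1 was called higher (16.7%) and 3 lower (50%). These shares stand against 12.3% and 12% of all regions. With scaling on kept regions 2 were called higher and 1 lower. Their median of -0.21 turned to 0.10 with scaling on kept regions. Suz12 signal does not measure the share of another cell type in the culture. Of 30 germline genes 17 had no peak, and of 13 regions 0 were called higher and 1 lower, Tdrd6 (-0.52 ± 0.16, SE), which was not called with scaling on kept regions (adjusted p = 0.31) or without lane 1, 4 or 6 (0.155 to 0.193). Of 1110 olfactory receptor genes 1108 had no peak in any list. The other 2, Olfr94 and Olfr95, had kept regions with changes of -0.34 ± 0.17 and -0.46 ± 0.23 (SE) that did not pass the test (adjusted p = 0.164 and 0.153).

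Kept regions away from genes had lower medians than those at gene starts. With TMM the median log2 change was -0.30 for 3429 kept regions at a gene start, of which 816 were called lower. For 272 kept regions outside genes but within 10 kb of one it was -0.61, with 135 called lower. For 298 kept regions over 10 kb from any gene it was -0.50, with 100 called lower. With scaling on kept regions the 3 medians were 0.01, -0.30 and -0.18, so their order was the same, with 113, 34 and 17 called lower. These classes differ in signal too, with a median of 123 CPM at gene starts and 89.7 and 69.3 CPM in the classes away from them. The part of signal in the order was not tested.

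A few regions far from genes rose. By log2 change these were led by chr18:75342212-75343653 (1.43 ± 0.24), chr18:35887302-35890747 (1.21 ± 0.21), chr6:30172675-30177030 (1.18 ± 0.20) and chr11:94148414-94149943 (1.16 ± 0.24, SE). All 4 lay over 10 kb from any protein-coding gene. The chromosome 6 region had 97.1 and 77.2 CPM at 0 h and 217 and 173 CPM at 12 h, with no peak listed at 0 h. In all, 17 of 845 regions this far from genes were called higher and 122 lower with TMM, and 46 and 23 with scaling on kept regions, which turns the balance.

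Promoters that gained Suz12 were rich in CpG. Over 21045 promoter windows of 300 bases, the median number of CpG dinucleotides was 25 in gained, 23 in kept and 23 in mixed windows. It was 6 in windows with no peak. At least 15 CpG were present in 81.4% of gained, 74.4% of kept and 31.9% of unbound promoters. Promoters of regions called higher had a median of 28 CpG and those called lower 19. CpG content set no sharp border, since 4410 promoters with at least 15 CpG had no peak in any list.

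The share of promoter windows with peaks in both lists of a group went up with CpG count at both times. With 0 to 4 CpG it was 1.88% at 0 h and 2.93% at 12 h. With 30 to 67 CpG it was 27.3% at 0 h and 57.0% at 12 h, and 23.8% of these windows were at gained regions. Among kept regions the median log2 change with TMM was -0.36 for promoters with 0 to 4 CpG, -0.44 for 5 to 9 and -0.12 for 30 to 67. With scaling on kept regions these medians were -0.05, -0.13 and 0.19, so the sign of the last depends on the scaling. Median GC content was 65.7% at gained, 65.3% at kept and 52.3% at unbound promoters, and its part in these shares was not tested. Genes and their windows are not independent replicates, and these shares are a description with no test.

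**Figure D5:**
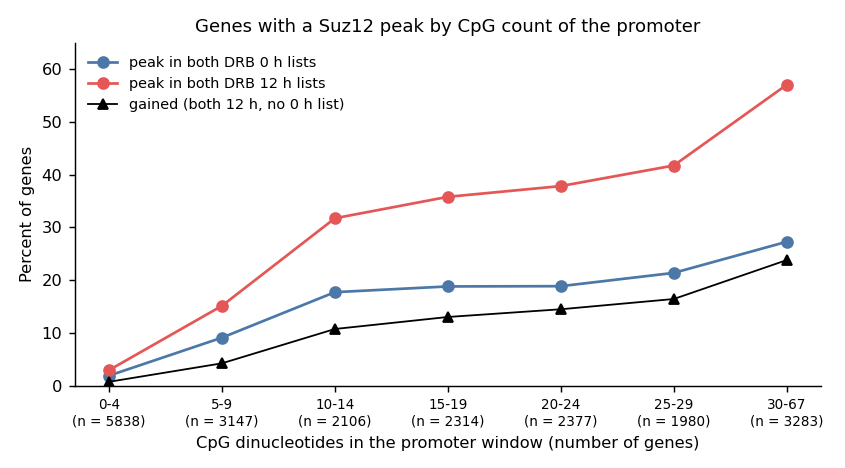
Percent of genes with a Suz12 peak in both 0 h lists, in both 12 h lists, or gained, by the number of CpG dinucleotides in the 300-base promoter window (number of genes in brackets). At 30 to 67 CpG the shares are 27.3% at 0 h and 57.0% at 12 h, and at 0 to 4 CpG 1.88% and 2.93%.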

How the data were processed

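Per the submitters' processing notes, the authors used Bowtie, MACS and the mm10 (GRCm38) build, in versions not given. There is 1 deposited list of peaks for each library. It gives no score but, per the file headers, raw read counts in whole numbers, not normalized. Of these columns 4 belong to the groups compared, and 9 others in each list were not used. The other 16 samples of the series were not analysed here.

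A region took the counts of the widest of its peaks in any of the 4 lists. They were tested in edgeR 4.0.16 (R 4.3.3) by quasi-likelihood, with TMM scaling, no filter on low counts, 2 libraries against 2 and Benjamini-Hochberg adjustment over the 11833 regions. The SE of a log2 change was derived from the F statistic. Depth was 1305651 to 7232275 reads over the regions, which limits regions of low signal (the median region had 34.7 CPM). The script was tested on simulated data with known changes.

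Genes were 21631 protein-coding genes of the RefSeq annotation (GRCm38.p6) on the autosomes and X. Start sites came from the promoter table for 17274 of them, and for the other 4357 either annotated end was used. Genes named are the 12 of largest increase and 8 of largest decrease among regions at genes with at least the median signal, the 6 kept regions of highest signal, the 4 largest increases over 10 kb from genes, the lost regions at genes, and up to 3 members of each of 20 lists in each direction. Symbols of the form Gm and a number or ending in Rik were left out. One result that the rule names is not reported here. Regions, gene lists and tests were chosen with earlier results of these data known. Alternatives (scaling by summed counts or on kept regions, DESeq2 1.42.0, filterByExpr, the narrowest peak, regions with peaks in both lists of a group, a replicate block, other peak thresholds, overlaps and windows, and each library or list left out) are given in the closing section.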

Additional observations from a re-analysis of the deposited data

How the results depend on the processing

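The ratios of peaks, covered length and genes stayed above 1.4 under every alternative run. The ratio of median peak width ranged from 0.896 to 1.07 when each list was left out, and so crossed 1. The median width change of kept regions was -0.040 for 12 h replicate 1 against 0 h replicate 2 and 0.45 for 12 h replicate 2 against 0 h replicate 1. With wider peaks alone (at least 1231 bp) there were 2509 kept, 1220 gained and 3 lost regions, and with lists of equal length 824 gained and 507 lost. Lost regions numbered 25 to 165 when a list was left out.

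Counts of calls moved with the scaling and with the libraries used. Scaling by summed counts gave 1826 higher and 573 lower, scaling on kept regions 2689 and 226, and DESeq2 976 and 1381. Without each library in turn the higher calls ranged from 712 to 1908 and the lower calls from 360 to 2194, the lowest of both without the lane 4 library and the highest without the lane 6 library. In these fits the group with 1 library left is assumed to vary like the other group, and edgeR set 1 spread for all regions (infinite prior degrees of freedom, against 9.92 with all 4 libraries), so their p-values are not on 1 footing with the main ones. With scaling on kept regions the median of signalling ligands and receptors turned from -0.31 to 0.0048 and that of mesenchymal genes from -0.21 to 0.10.

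The count columns carry no replicate number of the labels. A replicate block by the digit that 1 column of each group carries gave 2661 higher and 3035 lower, also with infinite prior degrees of freedom. Deviations of same-digit libraries had a correlation of 0.386 over regions, and with 2 pairs this does not establish a pairing. Of 1454 regions called higher and 1415 called lower, none was called in the opposite direction under any of the 11 alternative fits of the counts. Depth limits regions with few reads: in the lowest quartile of signal 79 of 2959 regions were called higher and 28 lower.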

Other observations

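Regions of low signal had the higher medians, and most of them entered through peaks outside the kept pattern. In the lowest quartile of mean signal (median 13.0 CPM) the median log2 change was 0.33, and it was 0.20, 0.05 and -0.33 in the quartiles above it (median of the highest 176 CPM). In the highest quartile 259 of 2958 regions were called higher and 903 lower, and with scaling on kept regions 535 and 136. Of the 2959 regions in the lowest quartile 7 were kept, 678 gained and 2269 mixed, and of the 2958 in the highest 2888 were kept, so peaks at 12 h alone are part of how the low ones entered. Among kept regions alone the order was not seen: the medians were -0.72 (7 regions), -0.48, -0.29 and -0.34 from the lowest quartile to the highest, and -0.41, -0.17, 0.02 and -0.03 with scaling on kept regions. By quartile of width, kept regions had medians of -0.25 to -0.42 with TMM, but -0.11, 0.01, 0.06 and -0.04 from narrow to wide with scaling on kept regions.

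Regions at promoters of Irf2bp1 and Irf2bpl rose by 2.5 and 2.49 on the log2 scale, and the third gene of that family, Irf2bp2 (chromosome 8, 126592226 to 126595174), chosen after its values were seen, was gained with 0.86 and did not pass the edgeR test (adjusted p = 0.0576). Of the 13 lost regions, 10 lay away from gene starts, and 10 of the 13 were called lower.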
